A study of Mus musculus with 7 samples.

Results

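The genes described here encode the SR splicing factors, a family of RNA-binding proteins rich in serine and arginine. The members were the rows of the deposited expression table that carry the symbols Srsf1, Srsf2, Srsf3, Srsf4, Srsf5, Srsf6, Srsf7, Srsf9, Srsf10 and Srsf11, which are 10 of the 24346 genes listed. All 10 were expressed well above the filter on low values and all 10 were tested. Expression was measured by bulk RNA-seq of the cerebral cortex of male mice at P100, on a C57BL/6J background. The 4 CrT-/y animals (labelled Slc6a8 KO, numbers 0 to 3) carried a deletion of exons 5 to 7 of Slc6a8, the X-linked gene of the creatine transporter, in every cell of the body. The 3 CrT+/y animals (numbers 1 to 3) were wild-type littermates, and no animal received a treatment. Each animal gave 1 library, so the spread reported below is the spread between animals. The comparison asks which SR genes change their RNA level in the cortex when creatine uptake is lost.

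SR proteins bind short sequences in exons of the nascent transcript and recruit the U1 and U2 particles of the spliceosome to the neighbouring splice sites. Each has a domain that recognises RNA and a tail of repeated arginine and serine residues, and kinases of the SRPK and CLK families phosphorylate this tail to control where the protein sits and what it binds. SR genes also limit their own output: their transcripts can include a cassette exon with a premature stop codon, often called a poison exon, and such transcripts are degraded by nonsense-mediated decay. In neurons, SR proteins act beside hnRNPs and cell-type regulators such as the NOVA, RBFOX, MBNL and ELAVL proteins, which favour or block the same splice sites.

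Slc6a8 itself checked the labels. It stood at 12.4, 14.9, 14.7 and 15.7 FPKM (a fragment count scaled by exon length and by the number of mapped reads) in CrT-/y animals 0 to 3 and at 32.3, 29.6 and 28.0 FPKM in CrT+/y animals 1 to 3, so the groups did not overlap. The deposited values hold no read counts per gene, and the read numbers that the authors list per replicate were not used. Relative depth, estimated from genes of very low expression, spanned a range of 1.00 to 1.41 between libraries, with the shallowest library from CrT+/y animal 1 and the deepest from CrT-/y animal 2. The tissue label was set against marker genes of cortical neurons, and all 8 excitatory and all 8 inhibitory markers passed the filter. All 6 striatal markers passed it as well, so passing the filter does not tell cortex from neighbouring tissue. In these bulk samples, fewer cells of a type and less RNA per cell cannot be told apart.

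The poison exons are shown first because FPKM are summed over all transcripts of a gene, so productive and degraded forms enter the same value. In the GENCODE M21 annotation, 9 of the 10 SR genes have at least 1 transcript classed as a target of nonsense-mediated decay. The same holds for 27.4% of 12901 tested genes with a matched symbol. A transcript with a retained intron is annotated for 8 of the 10, and for 7372 of the 12901 tested genes. Srsf10 is the exception for decay, with 4 protein-coding and 6 non-coding processed transcripts. Cassette exons that lie outside every protein-coding exon and carry the premature stop were found for Srsf3, Srsf4, Srsf7, Srsf9 and Srsf11. Those of Srsf3, Srsf4, Srsf7 and Srsf9 are printed from the first base of the exon to the stop, 5′ to 3′ on the strand of the gene (GRCm38, which is mm10), with the stop codon in capitals.
Srsf3, chr17:29039454-29039487, plus strand: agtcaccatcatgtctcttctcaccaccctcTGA
Srsf4, chr4:131884276-131884390, plus strand: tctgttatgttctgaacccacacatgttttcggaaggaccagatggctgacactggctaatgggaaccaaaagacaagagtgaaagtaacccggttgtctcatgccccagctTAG
Srsf7, chr17:80205054-80205081, minus strand: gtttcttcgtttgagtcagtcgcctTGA
Srsf9, chr5:115328347-115328428, plus strand: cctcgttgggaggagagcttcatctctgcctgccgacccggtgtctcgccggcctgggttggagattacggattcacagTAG
The stop comes 34 bases into the exon in Srsf3, 28 in Srsf7, 82 in Srsf9 and 115 in Srsf4. How much of each gene's FPKM came from transcripts with these exons was not analysed here, since the values are given per gene.

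Of the 10 SR genes, 2 were downregulated in CrT-/y cortex and none was upregulated (limma, adjusted p-value under 0.1). The 2 were Srsf10 and Srsf4, which makes 20.0% of the members, beside 7.25% of the 12988 tested genes that were downregulated and 2.90% that were upregulated. At an unadjusted p-value under 0.05 the counts over the members were again 2 lower and 0 higher, and here 16.8% of all tested genes were lower and 8.19% higher, so the members' 20.0% lay near the background. The median log2 fold change over the members was -0.04, and over all tested genes it was -0.03. The sign of the member median was not stable, since it was 0.02 after quantile and upper quartile scaling and 0.04 after GC correction. With every CrT-/y animal below every CrT+/y animal there were again 2 members, Srsf10 and Srsf4, beside 15.0% of the tested genes. No member had every CrT-/y animal above every CrT+/y animal, beside 6.57% of the tested genes. With the filter at a mean of 5 FPKM, which all 10 members passed, the same 2 were called lower, beside 11.1% of the genes then tested.

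**Figure D1:**
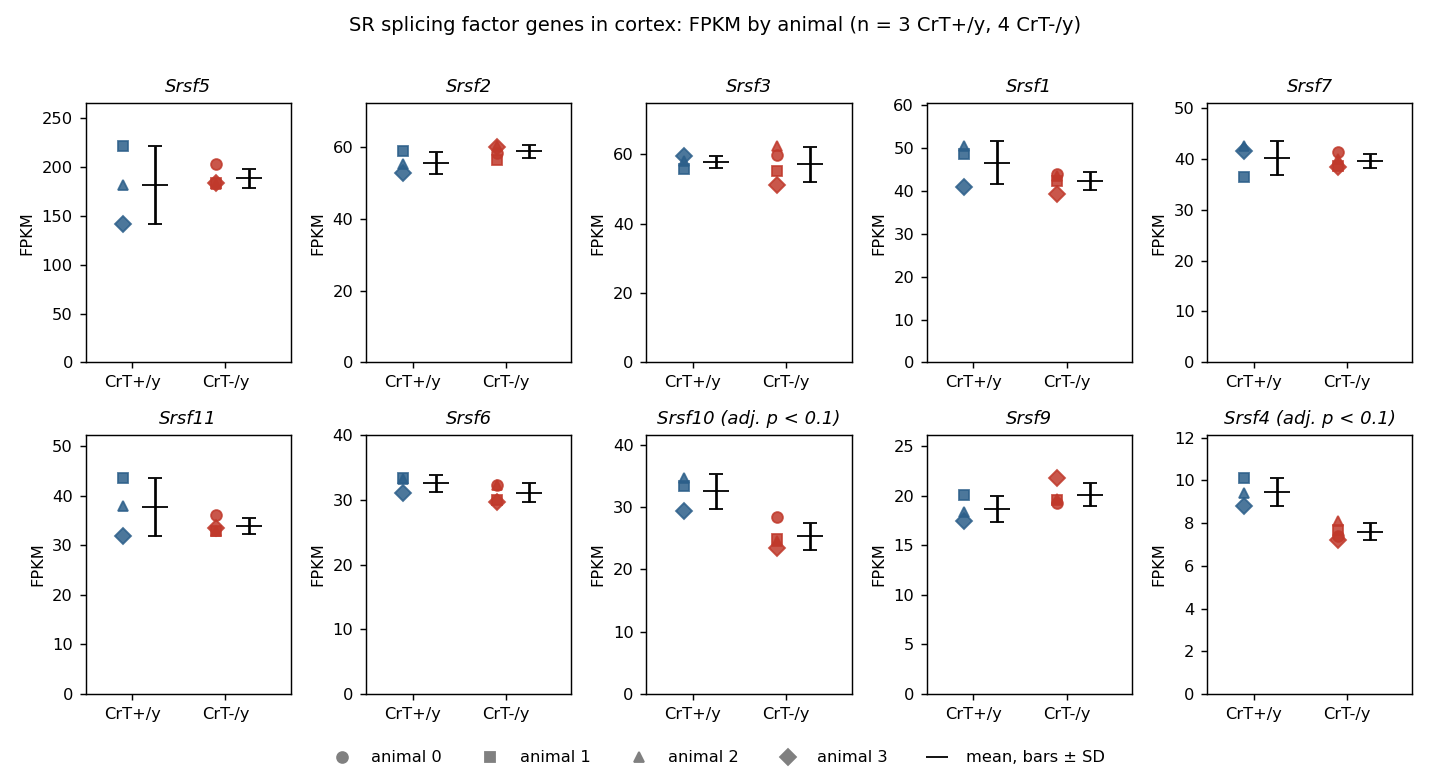
FPKM (vertical axis, starting at 0) of each of the 10 SR genes in each animal, in order of mean level, for CrT+/y (blue, n = 3) and CrT-/y animals (red, n = 4). The marker shape gives the animal's number and the black bar the mean ± SD. In Srsf10 and Srsf4 all red points lie below all blue points, and in the other 8 panels the genotypes overlap.

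Srsf10 encodes an SR protein that acts as a general repressor of splicing when it loses its phosphates, as it does after heat shock. The gene lies on chromosome 4 (135855747 to 135869908, plus strand). It was at 28.3, 24.8, 24.6 and 23.4 FPKM in CrT-/y animals 0 to 3 and at 33.4, 34.7 and 29.4 FPKM in CrT+/y animals 1 to 3. The groups did not overlap, but the highest CrT-/y animal and the lowest CrT+/y animal were close to each other. The CrT-/y mean was 25.3 ± 2.12 FPKM (SD, n = 4), which is 77.8% of the CrT+/y mean of 32.5 ± 2.75 FPKM (SD, n = 3). On the log2 scale the fold change was -0.36 (standard error 0.08, 95% interval -0.54 to -0.18, limma adjusted p = 0.0506). The exact permutation test over the 35 splits of the 7 animals gave p = 0.0286 (two-sided), the smallest value this design allows.

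Srsf4 encodes one of the longest SR proteins, with an extended arginine and serine tail. It lies on the same chromosome as Srsf10 (131873617 to 131901706, plus strand). It was the least expressed member, at 7.41, 7.70, 8.09 and 7.22 FPKM in CrT-/y animals 0 to 3 and at 10.1, 9.40 and 8.81 FPKM in CrT+/y animals 1 to 3. The groups did not overlap, and CrT+/y animal 1 was the highest. The CrT-/y mean of 7.60 ± 0.378 FPKM (SD, n = 4) was 80.5% of the CrT+/y mean of 9.44 ± 0.655 FPKM (SD, n = 3). The log2 fold change was -0.31 (standard error 0.07, 95% interval -0.47 to -0.14, limma adjusted p = 0.0564), and the exact permutation test again gave the smallest possible p = 0.0286 (two-sided). Some exonic bases of Srsf4 are shared with the annotated gene Gm12992, and whether reads were assigned by strand is not given in the sources used here.

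Both calls depended on which animals entered the fit. Srsf10 was no longer past the threshold when CrT-/y animal 1, 2 or 3 or CrT+/y animal 1 or 2 was left out (adjusted p = 0.111 to 0.145 with limma), while its log2 fold change stayed between -0.35 and -0.31 in those fits. Srsf4 was lost without any single animal other than CrT+/y animal 3 (adjusted p = 0.103 to 0.154, log2 fold change -0.34 to -0.26). Without CrT+/y animal 3, both were called, and Srsf1 (log2 fold change -0.23, adjusted p = 0.0353) and Srsf11 (-0.26, adjusted p = 0.0394) were called lower as well. In that same fit 18.4% of all tested genes were called lower, so that the members' count rose together with the background. Under all scalings of the animals tried (quantile, upper quartile, median centring, transcript length and GC content), the called members were Srsf10 and Srsf4, both lower, whereas the share of all calls that were lower moved from 71.4% as deposited to between 38.5% (upper quartile scaling) and 61.5% (GC correction).

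**Figure D2:**
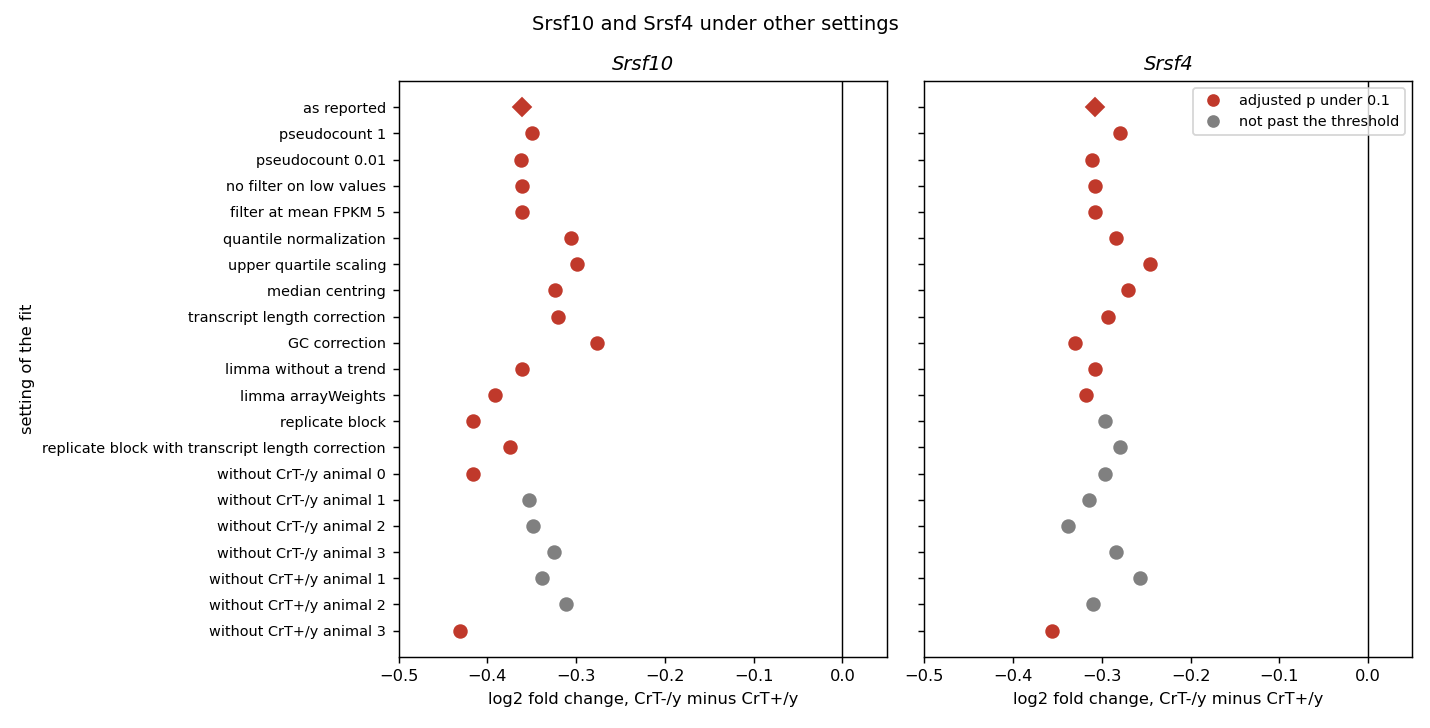
Log2 fold change of Srsf10 and Srsf4 (horizontal axis, CrT-/y minus CrT+/y) under each setting of the fit (rows), with red for an adjusted p under 0.1 and grey for values not past the threshold. Every value lies below 0, between -0.43 and -0.28 for Srsf10 and between -0.36 and -0.25 for Srsf4, and most grey points are fits with 1 animal left out.

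The promoters of the called genes are shown because both genes moved in the same direction. Each is the RefSeq window (GRCm38.p6) from 250 bases before to 50 bases after the annotated start, 5′ to 3′, with GC boxes (GGGCGG, searched on both strands) in capitals. For Srsf4 the table holds 3 windows, and the first is given. The Srsf10 window lies inside the gene span given above, which begins at 135855747 in GENCODE, so the RefSeq start used here is a different one.
Srsf10, chr4:135855821-135856120, plus strand: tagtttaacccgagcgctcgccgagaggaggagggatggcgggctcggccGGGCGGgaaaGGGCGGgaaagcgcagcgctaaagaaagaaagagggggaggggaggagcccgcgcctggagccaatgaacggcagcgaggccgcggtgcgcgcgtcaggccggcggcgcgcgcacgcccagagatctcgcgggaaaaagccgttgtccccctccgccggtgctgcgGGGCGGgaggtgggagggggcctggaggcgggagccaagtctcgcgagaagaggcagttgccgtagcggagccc
Srsf4, chr4:131873387-131873686, plus strand: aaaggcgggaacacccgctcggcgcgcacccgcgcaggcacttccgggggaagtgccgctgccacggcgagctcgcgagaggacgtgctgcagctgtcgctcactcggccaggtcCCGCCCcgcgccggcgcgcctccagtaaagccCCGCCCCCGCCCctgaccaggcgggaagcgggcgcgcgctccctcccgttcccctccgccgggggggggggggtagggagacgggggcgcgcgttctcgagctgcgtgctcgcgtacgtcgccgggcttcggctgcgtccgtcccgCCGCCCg
Srsf10 has 3 GC boxes and Srsf4 has 4 of them, with a GC content of 71.3% and 77.7%. A GC box was present in 9 of the 10 member promoters, called or not, and in 35.9% of 27025 promoters of the same length. Unlike the background of the decay classes above, these promoters were not limited to the genes tested here. The CCAAT box (letters CCAAT, both strands) was present in 4 of the 10, including Srsf10 but not Srsf4, and in 37.9% of all promoters. The cAMP response element (TGACGTCA) was in none of the 10 and in 1.88% of all promoters. These are matches of letters in a window and carry no information on binding.

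Srsf1, Srsf5, Srsf6 and Srsf9 share with Srsf4 a pair of RNA recognition motifs, and none of these 4 passed the threshold. Srsf1, a founding member that activates exon inclusion and shuttles out of the nucleus, was at 44.0, 42.3, 43.6 and 39.2 FPKM in CrT-/y animals 0 to 3 and at 48.5, 50.4 and 40.9 FPKM in CrT+/y animals 1 to 3. The groups overlapped because CrT+/y animal 3 lay below 3 of the CrT-/y animals. Its log2 fold change was -0.14 (95% interval -0.31 to 0.04, limma adjusted p = 0.311).

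Srsf5, the most abundant member, was at 203.5, 184.0, 182.6 and 183.9 FPKM in CrT-/y animals 0 to 3 and at 221.4, 181.9 and 141.7 FPKM in CrT+/y animals 1 to 3. The CrT+/y animals spanned the whole range of the CrT-/y animals, with a standard deviation of 21.9% of the mean in CrT+/y and 5.31% in CrT-/y animals. The log2 fold change of 0.08 had a 95% interval from -0.21 to 0.36 (limma adjusted p = 0.748), the widest interval among the members. Without CrT+/y animal 3 it was -0.09.

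Srsf6, which like Srsf5 belongs to the classical SR proteins, was at 32.4, 29.9, 32.3 and 29.7 FPKM in CrT-/y animals 0 to 3 and at 33.4, 33.2 and 31.1 FPKM in CrT+/y animals 1 to 3. CrT+/y animals 1 and 2 stood above all CrT-/y animals, and animal 3 did not. Its log2 fold change was -0.07 (95% interval -0.20 to 0.06, limma adjusted p = 0.502).

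Srsf9, one of the smaller SR proteins with a short tail, was at 19.3, 19.6, 19.6 and 21.8 FPKM in CrT-/y animals 0 to 3 and at 20.1, 18.4 and 17.4 FPKM in CrT+/y animals 1 to 3. The highest value was that of CrT-/y animal 3, and CrT+/y animal 1 lay above 3 of the CrT-/y animals. Its log2 fold change of 0.11 was the most positive among the members (95% interval -0.05 to 0.26, limma adjusted p = 0.362).

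Srsf2, Srsf3 and Srsf7 have a single RNA recognition motif, and none of them passed the threshold. Srsf2, a classical SR protein that favours exon inclusion, was at 58.4, 56.5, 60.2 and 60.0 FPKM in CrT-/y animals 0 to 3 and at 58.9, 55.2 and 52.8 FPKM in CrT+/y animals 1 to 3. Only CrT+/y animal 1 reached into the CrT-/y range. The log2 fold change was 0.08 (95% interval -0.04 to 0.21, limma adjusted p = 0.396).

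Srsf3, the smallest SR protein and an adaptor for export of messenger RNA, was at 59.7, 55.2, 62.3 and 51.1 FPKM in CrT-/y animals 0 to 3 and at 55.9, 58.0 and 59.5 FPKM in CrT+/y animals 1 to 3. Here the CrT-/y animals were the more scattered group, and both the highest and the lowest value came from them. For Srsf3 the log2 fold change was -0.02 (95% interval -0.18 to 0.14, limma adjusted p = 0.886).

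Srsf7, which carries a zinc knuckle beside its RNA recognition motif and also takes part in export, was at 41.3, 38.6, 39.8 and 38.4 FPKM in CrT-/y animals 0 to 3 and at 36.4, 42.4 and 41.6 FPKM in CrT+/y animals 1 to 3. All CrT-/y values lay inside the CrT+/y range. For Srsf7 the log2 fold change was -0.02 (95% interval -0.17 to 0.13, limma adjusted p = 0.889).

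Srsf11 encodes a divergent member of the family that has been tied to the U2AF factor at the start of spliceosome assembly. It was at 36.2, 32.9, 32.8 and 33.4 FPKM in CrT-/y animals 0 to 3 and at 43.6, 37.8 and 31.8 FPKM in CrT+/y animals 1 to 3. CrT+/y animal 3 was the lowest of all 7 and the other CrT+/y animals were the highest. The log2 fold change was -0.15 (95% interval -0.36 to 0.07, limma adjusted p = 0.368). For Srsf1, Srsf2 and Srsf4, exonic bases are shared with other annotated genes (Gm11508 for Srsf1, Mettl23 and Mfsd11 for Srsf2), and for the other 7 members no such overlap was found.

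**Figure D3:**
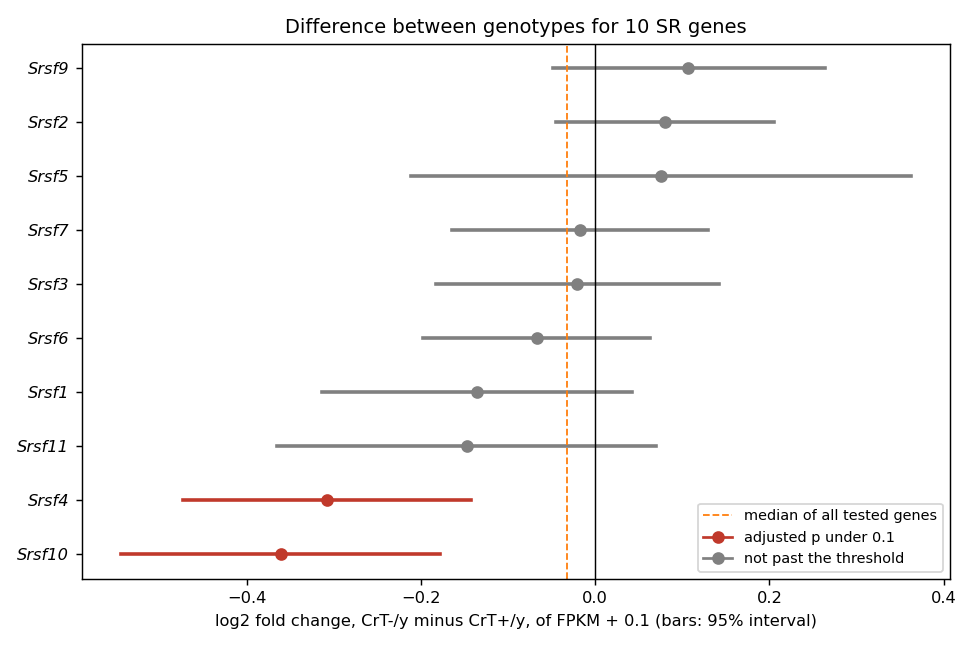
Log2 fold change (horizontal axis, CrT-/y minus CrT+/y, of FPKM + 0.1) of each SR gene with its 95% interval from limma, with red for an adjusted p under 0.1. The intervals of Srsf10 (-0.54 to -0.18) and Srsf4 (-0.47 to -0.14) lie below 0, the other 8 cross 0, and the dashed line marks the median of all tested genes at -0.03.

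The levels of the members, which FPKM allows to be compared because they are scaled to exon length, covered a wide range. Averaged over the 7 animals, Srsf5 stood at 185.6 FPKM, followed by Srsf2 (57.4), Srsf3 (57.4), Srsf1 (44.1), Srsf7 (39.8), Srsf11 (35.5), Srsf6 (31.7), Srsf10 (28.4), Srsf9 (19.4) and Srsf4 (8.39). Srsf5 was first, Srsf9 the ninth and Srsf4 last in each of the 7 animals. Srsf5 was 2.69 to 3.76 times as high as Srsf2, and Srsf9 was 1.96 to 3.02 times as high as Srsf4. Srsf2 and Srsf3 did not separate, since Srsf2 was the higher in 3 of 7 animals. Srsf1 and Srsf7, Srsf7 and Srsf11, and Srsf6 and Srsf10 each kept their order in 6 of 7 animals. The exception between Srsf6 and Srsf10 was CrT+/y animal 2, where Srsf10 was above Srsf6.

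The share of each member in the summed FPKM of the 10 does not depend on a single scaling factor per animal, though corrections that act gene by gene, such as those for GC content, can move it. The sum was 530.5, 491.5, 505.9 and 488.1 FPKM in CrT-/y animals 0 to 3 and 561.6, 521.4 and 455.0 FPKM in CrT+/y animals 1 to 3, and the groups overlapped. Srsf10 took 5.34%, 5.05%, 4.86% and 4.80% of this sum in CrT-/y animals 0 to 3 and 5.95%, 6.65% and 6.46% in CrT+/y animals 1 to 3. Srsf4 took 1.40%, 1.57%, 1.60% and 1.48% against 1.80%, 1.80% and 1.94%. Neither share overlapped between genotypes. The shares of Srsf1 (8.03% to 8.61% against 8.64% to 9.66%) and Srsf11 (6.49% to 6.85% against 7.00% to 7.77%) did not overlap either, although these genes were not called. Srsf5 took 36.1% to 38.4% in CrT-/y and 31.1% to 39.4% in CrT+/y animals, so this member alone could move the shares of the others. With Srsf5 left out of the sum, the shares of Srsf10 (7.61% to 8.66% against 9.39% to 10.2%) and Srsf4 (2.27% to 2.50% against 2.77% to 2.97%) still did not overlap. Those of Srsf1 (12.9% to 13.8% against 13.1% to 14.8%) and Srsf11 (10.2% to 11.1% against 10.2% to 12.8%) then overlapped, and those of Srsf2 (17.8% to 19.7% against 16.3% to 17.3%) and, narrowly, Srsf9 (5.89% to 7.16% against 5.41% to 5.89%) were higher in every CrT-/y than in every CrT+/y animal. Set against Srsf2 in the same animal, Srsf10 was at 48.5%, 43.9%, 40.9% and 39.0% of its FPKM in CrT-/y animals 0 to 3 and at 56.7%, 62.9% and 55.7% in CrT+/y animals 1 to 3. Srsf2 had a positive log2 fold change itself (0.08), which widens this gap, and ratios to the other members were not computed. These shares and ratios are descriptions and were not tested.

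Some animals stood out over several members. CrT-/y animal 3 was the lowest of the 7 animals in 5 members and CrT+/y animal 3 in 4, while the highest value was that of CrT+/y animal 1 in 4 members and of CrT+/y animal 2 in 3. Across the members, the median log2 deviation from each gene's mean was 0.11 in CrT+/y animal 1, 0.08 in animal 2 and -0.07 in animal 3, and over all tested genes it lay between -0.02 and 0.04 in the 7 animals. In CrT-/y animals 0 to 3 the member median was 0.03, -0.05, 0.00 and -0.09. The standard deviation of a member was 3.13% to 21.9% of its mean in CrT+/y and 2.93% to 8.67% in CrT-/y animals. CrT+/y animal 3 was nearest to the CrT-/y animals in both Srsf10 and Srsf4.

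**Figure D4:**
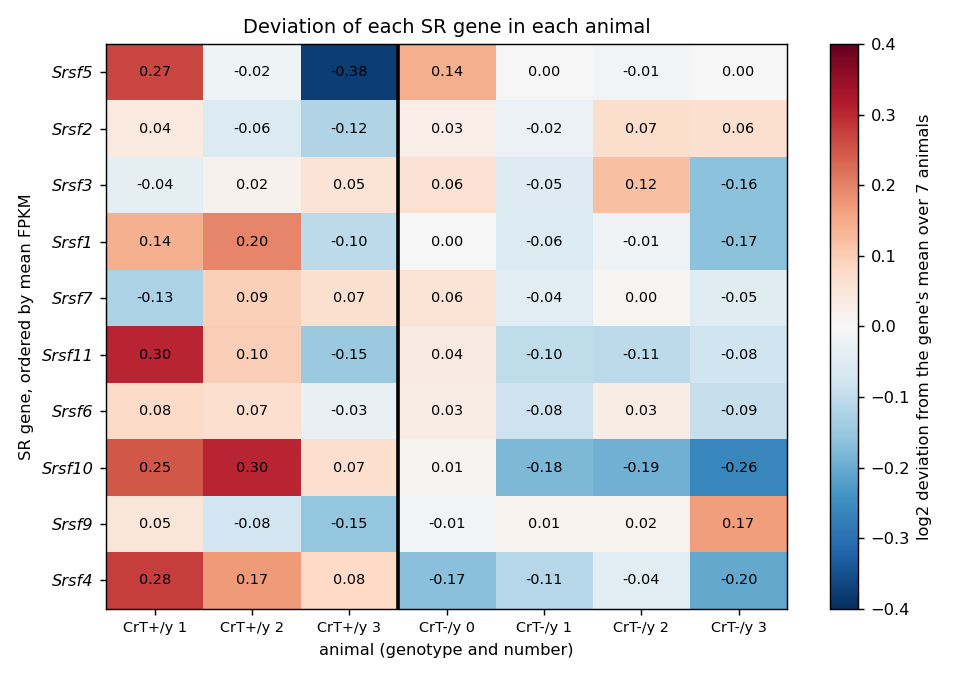
Log2 deviation of each SR gene (rows, ordered by mean FPKM) in each animal (columns, CrT+/y left and CrT-/y right of the black line) from that gene's mean over the 7 animals. CrT+/y animals 1 and 2 are above the mean for most genes and CrT+/y animal 3 is below it for Srsf5, Srsf11, Srsf9, Srsf2, Srsf1 and Srsf6, while Srsf4 is below its mean in every CrT-/y animal.

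The proteins that work with the SR family were counted in 6 further lists of 139 tested genes. Of these, 19 were downregulated (13.7%) and 2 upregulated (1.44%), beside the 7.25% and 2.90% of all tested genes, and the median log2 fold change was -0.11. The background depends on expression level. With the filter at a mean of 5 FPKM, 23 were lower and 3 higher, beside 11.1% and 3.43% of the genes then tested. The count of downregulated genes was 2 without CrT-/y animal 1 (beside 0.408% of all tested genes), 65 without CrT+/y animal 3 (beside 18.4%) and between 4 and 8 without any other single animal (beside 1.28% to 3.92%). After quantile normalization 9 were lower and 4 higher (beside 4.27% and 4.07% of all tested genes), after upper quartile scaling also 9 and 4 (beside 3.56% and 5.71%), and after median centring 10 and 4 (beside 4.06% and 3.77%). Of the genes named in the next paragraphs, Tra2a, Elavl4, Khdrbs3 and the 6 hnRNPs stayed called under these scalings and under the length and GC corrections. The lists overlap in function, and their genes are not independent of each other.

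Among 32 SR-related proteins, which also carry arginine and serine stretches, 2 were downregulated and none upregulated (limma, with 9 lower and 1 higher at an unadjusted p-value under 0.05, beside 16.8% and 8.19% of all tested genes, the background of each such count that follows). Tra2a, a splicing activator close in build to the SR proteins, was at 19.4 to 22.5 FPKM in CrT-/y and 27.5 to 32.7 FPKM in CrT+/y animals (log2 fold change -0.53, limma adjusted p = 0.0239). Thrap3, a nuclear protein found with splicing factors on messenger RNA, was at 30.2 to 32.6 against 34.4 to 38.0 FPKM (-0.21, adjusted p = 0.0672), and lost its call after quantile, upper quartile and median scaling (adjusted p = 0.111 to 0.137). Of 13 kinases and import factors that act on SR proteins, 2 were downregulated and none upregulated (limma, with 4 lower and 1 higher at an unadjusted p-value under 0.05). Srpk1, a kinase that phosphorylates SR proteins in the cytoplasm, was at 22.3 to 24.2 against 25.2 to 29.7 FPKM (-0.24, adjusted p = 0.0791). The nuclear kinase Clk3 was at 13.7 to 15.3 against 16.2 to 19.1 FPKM (-0.26, adjusted p = 0.0819). Both kinases lost the call after quantile, upper quartile and median scaling (limma adjusted p = 0.121 to 0.142 for Srpk1 and 0.119 to 0.132 for Clk3), and Srpk1 also after length (0.108) and GC correction (0.105).

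The hnRNPs often oppose SR proteins at the same exons. Of 27, 7 were downregulated and 1 was upregulated, beside 7.25% and 2.90% of all tested genes (limma). At an unadjusted p-value under 0.05, 12 were lower and 2 higher. The largest fall in this list was in Hnrnph3, at 12.4 to 13.2 FPKM in CrT-/y and 16.1 to 24.4 FPKM in CrT+/y animals (log2 fold change -0.72, limma adjusted p = 0.0325). Hnrnpm was at 41.1 to 45.5 against 54.0 to 73.3 FPKM (-0.54, adjusted p = 0.0322). Hnrnph1, which like Hnrnph3 binds runs of G, was at 85.2 to 93.6 against 99.8 to 128.1 FPKM (-0.39, adjusted p = 0.0524). Hnrnpc, a binder of U tracts, fell by 0.33 on the log2 scale (adjusted p = 0.0303) and Hnrnpul2 by 0.31 (adjusted p = 0.0503). Hnrnpl, which binds CA repeats, went the other way, at 69.3 to 74.4 against 57.4 to 62.3 FPKM (0.26, adjusted p = 0.0408).

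Of 26 proteins of the U1 and U2 particles and of U2AF, which SR proteins recruit, 1 was upregulated and 2 were downregulated. These counts stand beside 2.90% and 7.25% of all tested genes. At an unadjusted p-value under 0.05 (limma), 2 were higher and 3 lower. Snrpe, a protein of the Sm ring common to several particles, was at 44.4 to 52.4 FPKM in CrT-/y and 30.2 to 42.2 FPKM in CrT+/y animals (log2 fold change 0.49, limma adjusted p = 0.0524). Sf1, which binds the branch point, was at 40.7 to 44.1 against 46.3 to 51.3 FPKM (-0.21, adjusted p = 0.0798), and the U1 protein Snrpa changed by -0.19 (adjusted p = 0.0994). Sf1 and Snrpa lost the call after quantile, upper quartile and median scaling (limma adjusted p = 0.129 to 0.171 and 0.172 to 0.216). After length correction Sf1 (0.107) and Snrpe (log2 fold change 0.34, adjusted p = 0.103) were also no longer called.

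Among 26 tested neuronal and cell-type splicing regulators, 4 were downregulated (15.4%) and none upregulated, beside 7.25% and 2.90% of all tested genes (limma). At an unadjusted p-value under 0.05 (limma), 11 were lower and 0 higher. Elavl4, the neuronal ELAV protein also called HuD, was at 34.0 to 35.7 against 44.0 to 50.0 FPKM (log2 fold change -0.41, limma adjusted p = 0.0239). Khdrbs3 was at 54.4 to 64.5 against 71.2 to 83.1 FPKM (-0.37, adjusted p = 0.0393). The muscleblind genes Mbnl1 (-0.31, adjusted p = 0.0586) and Mbnl2 (-0.26, adjusted p = 0.0784) were both lower. Mbnl1 lost the call after quantile normalization (adjusted p = 0.103 with limma), and Mbnl2 after the 3 scalings and the GC correction (0.101 to 0.152). In the pathway that removes transcripts with poison exons, 2 of 15 genes of nonsense-mediated decay and the exon junction complex were downregulated (13.3%) and none upregulated. These counts stand beside the same 7.25% and 2.90% (limma, with 3 lower and 0 higher at an unadjusted p-value under 0.05). Among the 2 downregulated genes was Upf2, at 11.4 to 12.8 against 13.3 to 17.9 FPKM (-0.37, limma adjusted p = 0.0686), which was not called after upper quartile scaling (0.102).

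**Figure D5:**
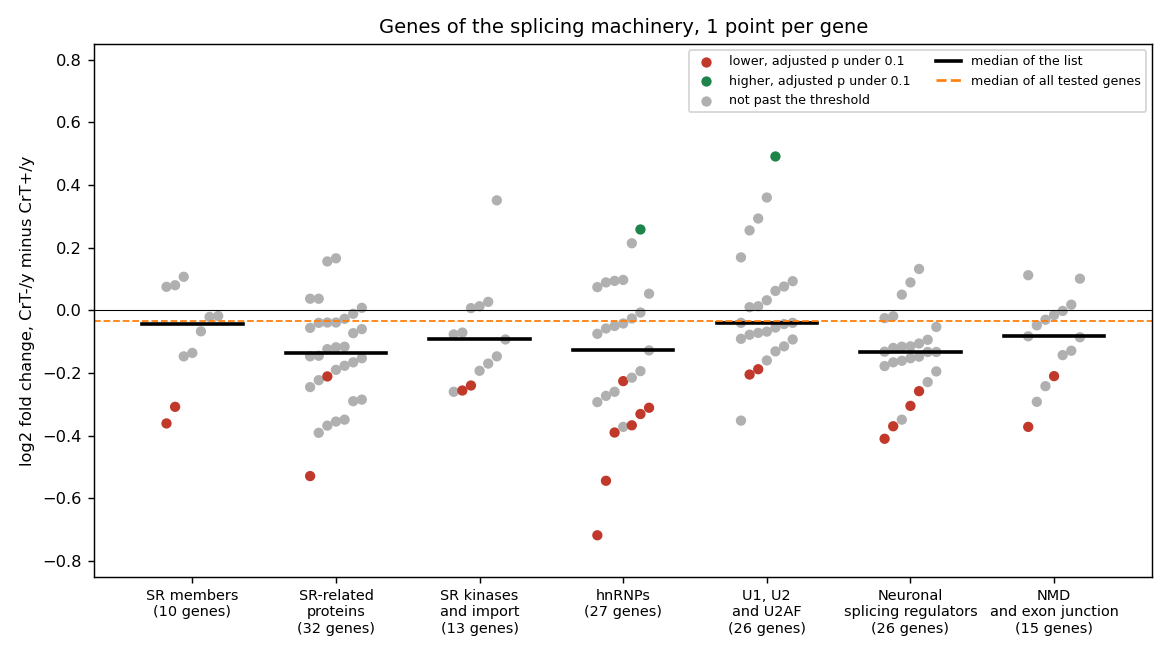
Log2 fold change (vertical axis, CrT-/y minus CrT+/y) of each tested gene of the SR family and of 6 lists of splicing genes, with red for lower and green for higher genes at an adjusted p under 0.1, black bars for list medians and a dashed line for the median of all tested genes. The list medians run from -0.14 (SR-related proteins) to -0.04 (SR members, and the U1, U2 and U2AF list), and the lowest point is Hnrnph3 at -0.72.

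Some cell type markers differed between genotypes, and others did not. Over all tested genes 7.25% were downregulated and 2.90% upregulated, which is the background of each count of called markers that follows. Of 6 endothelial and pericyte markers, 3 were downregulated (Flt1, Pecam1 and Rgs5). The 6 together summed to 86.3 to 107.2 FPKM in CrT-/y and 107.9 to 134.4 FPKM in CrT+/y animals. The 5 markers of oligodendrocyte precursors summed to 68.7 to 83.7 against 86.8 to 89.2 FPKM, with Olig2 downregulated. Of 8 excitatory neuron markers, 2 were downregulated, Neurod6 among them, and the summed levels overlapped (1557 to 1691 against 1581 to 1926 FPKM). The log2 fold changes of all 8 were negative. Of 8 inhibitory neuron markers, Gad1 was upregulated (limma adjusted p = 0.097), while log2 fold changes were positive in 5 and negative in 3 of the 8. The sums of these 8 overlapped (1040 to 1197 against 1086 to 1134 FPKM). None of 6 astrocyte, 6 oligodendrocyte and 6 microglia markers passed the threshold (limma, with 1 astrocyte marker lower and no other at an unadjusted p-value under 0.05), although the astrocyte sums were 605.0 to 671.3 against 672.5 to 734.8 FPKM. The 6 oligodendrocyte markers, all with a negative log2 fold change, summed to 853.7 FPKM in CrT-/y animal 3. In the other animals their sum was 1186 to 1557 FPKM.

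Markers of tissue next to the cortex differed between single animals. The ependymal and choroid plexus sum was 400.5 FPKM in CrT+/y animal 2 and 11.7 to 58.4 FPKM in the other 6, and of 3 tested olfactory bulb markers Cdhr1 was upregulated, most of all in CrT-/y animal 1 (9.14 FPKM). The 6 striatal markers, none of them called, summed to 132.1 to 327.4 FPKM in CrT-/y and 75.2 to 283.9 FPKM in CrT+/y animals (limma, 0 at an unadjusted p-value under 0.05). All 6 striatal markers had a positive log2 fold change (median 0.69), and so had all 3 tested olfactory bulb markers (median 0.69). No listed marker was at 0 FPKM in any animal. As signs of RNA quality and of activity before tissue collection, 7 nuclear long noncoding RNAs (1272 to 1399 against 1117 to 1452 FPKM in sum) and 11 immediate early genes (262.9 to 567.2 against 350.7 to 643.2 FPKM) held no called gene (limma, 0 at an unadjusted p-value under 0.05). The lowest sum of the noncoding RNAs, 1117 FPKM, was that of CrT+/y animal 3, and the other animals were at 1272 to 1452 FPKM. The part of cell composition, dissection and RNA quality in the values of Srsf10 and Srsf4 was not tested.

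The tested genes most like Srsf10 across the 7 animals, by Pearson's r of log2 values over 12988 genes, were Ttc1 (0.995), Adgrl4 (0.988) and Sbds (0.985). For Srsf9, the member with the smallest p-value among those with a positive log2 fold change, they were Upp2 (0.984), Vwc2 (0.976) and Foxp4 (0.975). These are the highest of many correlations over 7 points that share the difference between genotypes, and they are given as a description.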

How the data were processed

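Bulk RNA-seq of the cortex of 4 CrT-/y and 3 CrT+/y mice was analysed, with 1 library per animal and groups taken from the sample labels. The authors aligned paired reads to mm10 and its transcriptome (the labels name Bowtie and Cuffnorm), kept uniquely aligned reads on known exons or junctions, and deposited FPKM per gene and animal; no column was without a sample (0 left out). FPKM are not counts, so no count model was used. The paper lists a read number for each replicate, which was not used here.

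Values of log2(FPKM + 0.1) were fitted with limma 3.58.1 (R 4.3.3) on genotype, with a variance trend, for the 12988 genes whose average over the animals reached 1 FPKM. P-values were adjusted over all of them by the Benjamini-Hochberg procedure. Genes with an adjusted p-value under 0.1 were called. Log2 fold changes are on the log2(FPKM + 0.1) scale, which understates changes of low genes. Single values were also compared with exact permutation tests over 35 splits. The fit was tested on simulated data. Other computations used Python 3.11.15, numpy 2.4.6 and pandas 2.3.3.

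The alternatives were pseudocounts of 1 and 0.01, no filter or a mean of 5 FPKM, quantile, upper quartile and median scaling, transcript length and GC corrections, no trend, array weights, a replicate block with and without length correction, each animal left out, and an adjusted p-value under 0.05. For shares of the summed FPKM, the sum without Srsf5 was tried. The members and lists were chosen with earlier results of these data known. The text names all 10 members, Slc6a8, up to 6 called genes of each splicing list by smallest p-value, called marker genes, and the 3 genes most like Srsf10 and Srsf9, except that 2 genes are not reported here. Hnrnph3 was singled out as the largest fall of its list after the values were seen.

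Transcript classes come from GENCODE M21 (GRCm38), in which 23310 of 24346 symbols matched directly, 666 by a synonym and 370 did not match. Promoters come from RefSeq (GRCm38.p6), in which all 10 members matched. Protein sequences were not used here.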

Additional observations from a re-analysis of the deposited data

Results flagged for a closer look

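Among 39 genes checked, single animals stood apart from the rest of their group of 4 in 4 genes, where chance flags about 1 in 20 groups. Srsf5 was at 203.5 FPKM in CrT-/y animal 0 and at 182.6 to 184.0 FPKM in the other 3. Srsf9 was at 21.8 FPKM in CrT-/y animal 3 and at 19.3 to 19.6 FPKM in the other 3. Hnrnpm was lower in CrT-/y animal 1 (41.1 FPKM) than in the other 3 (45.1 to 45.5 FPKM). Cdhr1, a marker of the olfactory bulb, was at 9.14 FPKM in CrT-/y animal 1 and at 2.83 to 3.44 FPKM in the other 3. The CrT+/y group of 3 is too small for this check.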

How the results depend on the processing

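Srsf10 and Srsf4 stayed lower under all alternatives. Srsf1 and Srsf11 stayed negative and Srsf2 and Srsf9 positive. The replicate block, in which CrT-/y animal 0 has no partner and adds nothing, left 1 member called lower with and without the length correction: Srsf10 (log2 fold change -0.42, limma adjusted p = 0.0739) and not Srsf4 (-0.30, adjusted p = 0.121). Replicate numbers are not tied to litters in the labels, and same-numbered animals did not deviate together (r = -0.08, 0.05 and -0.05). At an adjusted p-value under 0.05 no member was called. Leaving out 1 animal gave 0 to 4 members lower.

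For the other splicing genes, calls lower were 11 with no filter, 9 without a trend, after quantile or upper quartile scaling, 10 after median centring, 38 with array weights, 7 with the replicate block and length correction, 6 at 0.05 and 2 to 65 without 1 animal. Calls higher were 4 after each of those 3 scalings, 6 with array weights, 0 with either replicate block, 1 at 0.05 and 0 to 10 without 1 animal. Of all tested genes, 1318 were called, and 730 with no filter, 576 with the replicate block, 287 with its length correction, 366 at 0.05 and 64 to 3736 without 1 animal. The share of calls that were lower was 71.4%, and 51.2% after quantile normalization, 51.8% after median centring, 38.5% after upper quartile scaling and 57.9% after length correction. No scaling moved the median of all genes by over 0.1.

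Uncalled members changed sign. Srsf3 was 0.0445 after quantile and 0.0414 after upper quartile scaling, 0.0163 after median centring, 0.0045 after length correction, 0.0644 after GC correction, 0.0011 with array weights and -0.0643 to 0.031 without 1 animal. Srsf7 was 0.0399 after quantile and 0.0438 after upper quartile scaling, 0.0187 after median centring, 0.0669 after GC correction and -0.0874 to 0.0233 without 1 animal. Srsf6 was 0.012 after GC correction. Srsf5 was -0.092 to 0.23 without 1 animal. The member median was 0.038 after GC correction, 0.017 after quantile and 0.018 after upper quartile scaling. The causes were not tested.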
